A study of Populus trichocarpa with 45 samples.

Results

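The genes described here were 66 genes of chromosome 13 of Populus trichocarpa, the black cottonwood, whose leaf transcript levels moved together from library to library. They were chosen from measured values. For every gene, log2(TPM + 1) was taken as the deviation from the mean of the 3 libraries of its branch, where TPM is transcript abundance per length, rescaled to the same sum in every library. A gene of chromosome 13 was a member when these deviations had a Pearson correlation above 0.8 over 45 libraries with those of PtStettler14.13G139500, and a standard deviation (SD) of at least 0.5. The 66 members were taken from 1454 genes of chromosome 13 and 34700 genes in all. The same rule found 87 genes off chromosome 13. The correlation, the SD and the spread between libraries of a branch chose the members, so they are given as descriptions with no test.

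Leaf mRNA was sequenced from 15 branches of old wild trees, 5 branches each of trees 4, 14 and 13, with 3 libraries per branch and no treatment. Trees 14 and 13 are 2 main stems of 1 individual in the study's text, which sets tree 4 apart as a separate tree, but the labels' growth protocol names 1 wild tree for every sample. The 3 libraries of a branch are called biological replicates in the study's Results and technical ones in its Methods, so p-values measured only the spread between branches or libraries. The depth that the steps of the FPKM values imply was 11900000 to 35900000 fragments per library, and in the median library 1 TPM over a span of 1 kb stood for about 18.3 fragments.

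Plastids carry a small circular genome of their own, which encodes their ribosomal RNAs and core subunits of the photosystems, the ATP synthase, the NDH complex and the ribosome. Copies of plastid DNA are found in the nuclear chromosomes of most plants, and long recent copies keep the order of the plastid genes. Plastid transcripts as a rule lack the long poly(A) tails that the mRNA library kit selects for, although they still appear in such libraries. The tables name no gene and no genome sequence was used here, so the label plastid-like was checked on gene spans and spacing alone.

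All 66 members lay in 2 runs, where a run ends at a gap of over 100 kb to the next member. The first run held 20 members in 281 kb, from 4730065 to 5011543 on chromosome 13 of the Stettler genome. The second run held 46 members in 97.6 kb, from 16167457 to 16265093. The runs lay 11.16 Mb apart. No gene of chromosome 13 started after the end of the second run, so the run closed the list of annotated genes of the chromosome, and its last member was PtStettler14.13G145400.

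The second run was the denser one. Its 46 members were 76.7% of the 60 genes annotated there, and 20 of them followed each other without a break. The median gap between its neighbouring members was 604 bases, and 26 members lay on the minus strand and 20 on the plus strand. In the first run the 20 members were 42.6% of 47 genes, with a median gap of 10061 bases, and 15 of them lay on the plus strand. A run ends at its outermost members, so by construction no neighbour outside it could meet the rule. None of the 30 neighbours of the first run and none of the 15 neighbours of the second run had a correlation above 0.8, and in each of these lists 1 gene had a correlation above 0. Most neighbours with any signal had a negative correlation. It ran from -0.88 to 0.50 (median -0.65) over 19 neighbours of the first run and from -0.86 to 0.26 (median -0.53) over 13 of the second, beside a median of -0.59 over all genes.

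**Figure D1:**
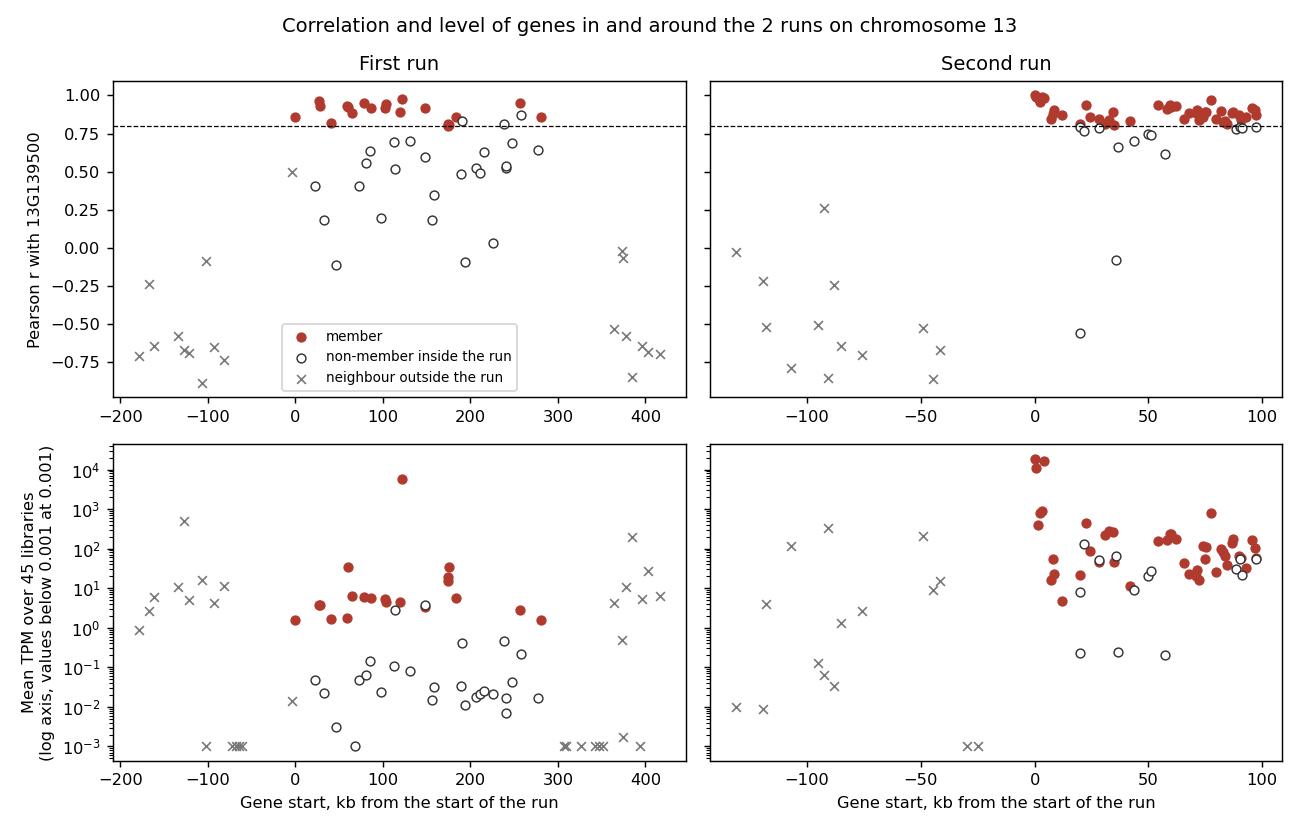
Pearson correlation with PtStettler14.13G139500 (top, dashed line at 0.8) and mean TPM over 45 libraries (bottom, log axis) against the start of each gene in kb from the start of its run, for members (filled circles), other genes inside a run (open circles) and neighbours outside it (crosses). Genes at 0 in every library have no correlation and appear only in the bottom panels. Members of the second run lie close together, with the highest levels at its start, and neighbours outside the runs lie below 0.8.

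The members were short genes. Their median span was 589.5 bases against 2914 bases over all genes, and 29 of 66 spanned under 500 bases, against 4.51% of all genes. The shortest was PtStettler14.13G143400, with 102 bases (16241430 to 16241531, plus strand), and the longest PtStettler14.13G141600, with 8028 bases (16202314 to 16210341, minus strand). A span that was a multiple of 3 was found in 81.8% of members, against 35.9% of all genes. Neither property was used to choose them, and neither was particular to them. The 41 non-members inside the runs had a median span of 501 bases, with 48.8% under 500 bases and 68.3% multiples of 3. The 87 genes off chromosome 13 that met the same rule had a median span of 445 bases, with 54.0% and 73.6%.

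The second run had the layout of a part of the plastid genome, ending in the place of psbH. Of its 46 members, 27 (58.7%) had exactly the span of a plastid coding gene in the RefSeq table of Populus trichocarpa, against 1 of 20 members of the first run and 1.43% of all genes that did not meet the rule on any chromosome. Such spans were also found in 8 of 14 non-members of the second run, 6 of 27 non-members of the first run and 17 of the 87 genes off chromosome 13. The first-run member was PtStettler14.13G060600, whose 282 bases are the span of PtStettler14.13G140500 in the second run, and the deviations of this pair had a correlation of 0.999. Spacing was then compared, on the starts of genes of equal span. In the second run 33 genes, 25 members and 8 non-members, had both the span and the spacing of plastid genes. The circular plastid map is opened in the table just before psbA, and on that side 29 genes kept a common offset that drifted by at most 213 bases over the run. On the other side 4 genes kept a second offset within 13 bases. In the first run 12 pairs, each of a gene of the run and a plastid coding gene, had equal spans, and no 2 of these pairs shared an offset. The label plastid-like thus fitted the layout of the second run. The first run showed no shared spacing in the direction of the plastid table, although 7 of its 47 genes had a plastid span. A copy in the opposite direction could not be seen this way, and the first run is called here by the rule alone. No sequence was compared, and whether reads came from the plastid genome or from the chromosome was not tested.

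**Figure D2:**
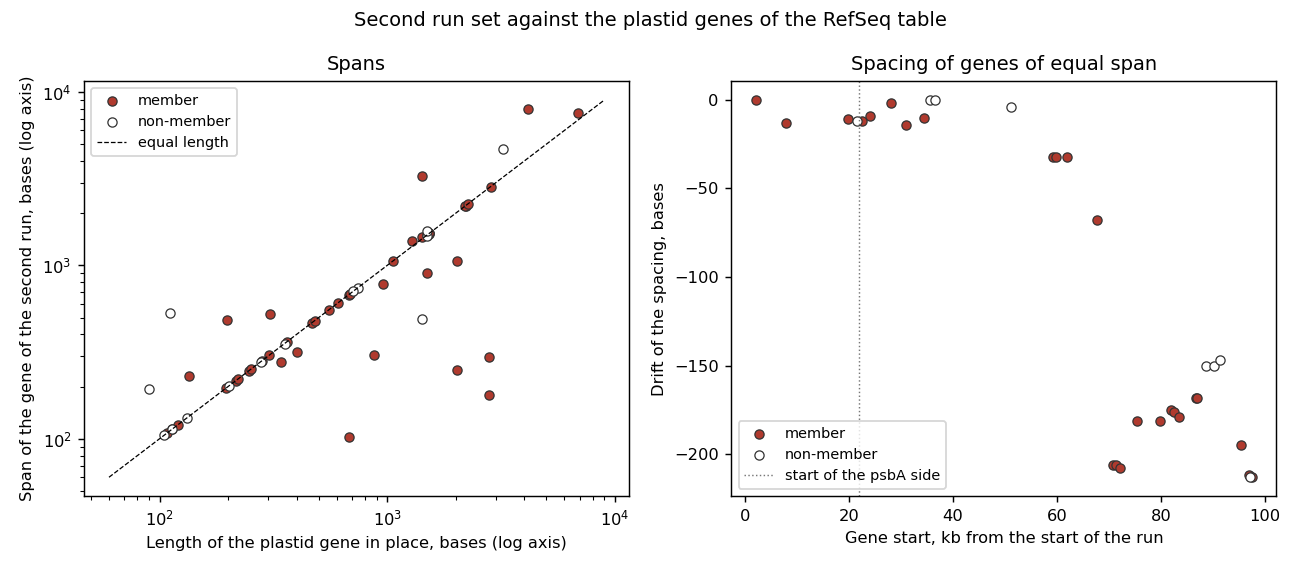
Left, span of each gene of the second run against the length of the plastid gene in its place, both in bases on log axes, with a dashed line at equal length. Right, drift of the spacing in bases for the 33 genes of equal span and spacing against their start in kb from the start of the run, with a dotted line where the map passes to psbA. Members are filled and non-members open, and the drift reaches 213 bases at the end of the run.

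Places in the second run are named below by the plastid gene that has the matching position, and the name is that of the place, not of the identifier. Strands were not compared, so a gene may lie on the strand opposite to that of the plastid gene in its place. In the counts by place below, a gene was counted when it and the plastid gene shared at least 50% of their joined span, or, for ribosomal RNA, when at least 50% of the gene lay in the place. By this limit 9 genes of the run, 6 of them members, had no place. The run opened in the place of the ribosomal RNA genes of the inverted repeat, the duplicated segment of the plastid genome. PtStettler14.13G139500, with 180 bases (16167457 to 16167636, minus strand), and PtStettler14.13G139600, with 297 bases (16168203 to 16168499, minus strand), lay in the place of a ribosomal RNA gene of 2809 bases. PtStettler14.13G140000, with 898 bases (16171384 to 16172281, plus strand), lay within the place of one of 1491 bases. It thus lay on the other strand from PtStettler14.13G139500 and PtStettler14.13G139600. Next came the places of rps7, ndhB, ycf2, rpl23 and rps19. After these the run continued with the places of psbA, matK, psbK, the ATP synthase genes atpA, atpF and atpH, the RNA polymerase genes, psbC, the photosystem I genes psaB and psaA, 3 NDH genes, atpE, atpB, rbcL and accD, and it ended with psbB, psbT, psbN and psbH.

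The ribosomal RNA places held most of the signal. PtStettler14.13G139500 ranged over libraries from 4070 to 77507 TPM in tree 4 (median 11043), from 6369 to 96767 TPM in tree 14 (median 13866) and from 2063 to 36321 TPM in tree 13 (median 9041). PtStettler14.13G140000 ranged from 3663 to 81466 TPM in tree 4, from 3532 to 106762 TPM in tree 14 and from 1795 to 36004 TPM in tree 13. The trees overlapped across most of these ranges. PtStettler14.13G139600 averaged 10912 TPM over all libraries. PtStettler14.13G139900, with 132 bases (16170574 to 16170705, plus strand), lay between the ribosomal RNA places, where the table has no plastid gene, and averaged 886 TPM.

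One member of the first run averaged 5784 TPM. Its level was 0.17 to 0.40 times that of PtStettler14.13G139500 over libraries (median 0.26). PtStettler14.13G060000, with 815 bases (4852379 to 4853193, minus strand), ranged from 1309 to 30987 TPM in tree 4 (median 2653), from 1289 to 37920 TPM in tree 14 (median 3123) and from 644 to 12128 TPM in tree 13 (median 2090). It was the only one of the 20 members of the first run with a mean over 100 TPM, and 15 of them averaged below 10 TPM. PtStettler14.13G058000, another first-run member of 815 bases, averaged 3.80 TPM, and their deviations had a correlation of 0.948. The first and last members of the first run, PtStettler14.13G057800 and PtStettler14.13G062400, both spanned 573 bases and averaged 1.54 and 1.57 TPM, with a correlation of 0.999. No sequence was compared, so whether genes of equal span share reads was not tested, and their levels are uncertain to that extent.

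Among the places of photosynthesis genes, that of rbcL, which encodes the large subunit of the carbon-fixing enzyme Rubisco, had the highest level. PtStettler14.13G143700 in that place (16245120 to 16246568, plus strand) spanned 1449 bases and ranged from 169 to 2390 TPM in tree 4 (median 624), from 247 to 3833 TPM in tree 14 (median 723) and from 81.6 to 1561 TPM in tree 13 (median 339). Its correlation with PtStettler14.13G139500 was 0.969, against a median of 0.884 over the second run. The place of psbA, for the D1 protein of the photosystem II reaction centre, held PtStettler14.13G140900. It ranged from 100 to 1930 TPM in tree 4, from 109 to 3021 TPM in tree 14 and from 64.6 to 856 TPM in tree 13.

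All 4 genes in places of photosystem I were members, with means of 63.8 to 231 TPM. PtStettler14.13G142700 and PtStettler14.13G142800, in the adjoining places of psaB and psaA for its paired core proteins, averaged 231 and 175 TPM. Of 9 genes in places of photosystem II, 7 were members, with a median of 139 TPM. The 2 that were not lay in the places of psbM and psbN, with correlations of 0.739 and 0.790. The overlap limit left out 3 more genes at such places. They were the member PtStettler14.13G142300 at psbC (160 TPM, correlation 0.937) and the non-members PtStettler14.13G142400 at psbC and PtStettler14.13G141200 at psbI, with correlations of 0.617 and 0.789. Of 6 genes in places of the ATP synthase, which makes ATP from the proton gradient, 5 were members, at 55.0 to 281 TPM.

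Levels in the remaining places differed widely. The 4 genes in places of the NDH complex, which carries electrons around photosystem I, were all members and averaged 16.3 to 28.03 TPM. Of 11 genes in places of ribosomal proteins, 5 were members, with a median of 55.0 TPM, and PtStettler14.13G142600 in the place of rps14 was the highest at 233 TPM. PtStettler14.13G141600 and PtStettler14.13G141900, in places of RNA polymerase subunits, averaged 46.2 and 11.4 TPM. The place of rpoC2 covered only 52.0% of PtStettler14.13G141600. This gene also spans PtStettler14.13G141700 and PtStettler14.13G141800, in the places of atpI and rps2, so its level is not that of a single place. PtStettler14.13G144200, in the place of petA for cytochrome f, averaged 38.5 TPM. The 8 members in other places, among them matK, accD, ycf4, cemA and clpP, averaged 4.82 to 789 TPM, with a median of 73.8 TPM. The highest of these was PtStettler14.13G139800, with exactly the span of an unnamed coding gene of 216 bases next to the ribosomal RNA places. The lowest member of the second run was PtStettler14.13G140400, a gene of 7524 bases in the place of ycf2, at 4.82 TPM.

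The non-members of the second run mostly missed the rule by little. Of 14, 10 had a correlation of 0.7 to 0.8, including PtStettler14.13G144700 (0.795, in the place of rpl33) and PtStettler14.13G140700 (0.795, in the place of rpl2), the pair just outside the threshold. Just inside it were PtStettler14.13G060700 at 0.801 and PtStettler14.13G060800 at 0.807, neighbours in the first run. At the SD threshold, PtStettler14.13G058700 (0.521) and PtStettler14.13G058500 (0.589) were just inside and PtStettler14.13G061100 (0.449) and PtStettler14.13G061700 (0.398) just outside. The last 2 averaged under 0.5 TPM, and log2(TPM + 1) compresses such values.

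PtStettler14.13G141700, a non-member in the place of atpI, took either a high or a low level in a library. It lies wholly under PtStettler14.13G141600 on the same strand. In 27 libraries it had 11.6 to 282 TPM, and in the other 18 it had 0.205 to 0.399 TPM, with no library between. Both levels occurred among the libraries of 1 branch in 9 of 15 branches. PtStettler14.13G141600 itself was at 2.91 to 86.2 TPM in the 27 libraries and at 9.20 to 135 TPM in the 18, so its own ranges overlapped. PtStettler14.13G141800, also wholly under PtStettler14.13G141600 on the same strand, stayed at 0.141 to 0.387 TPM in all 45 libraries. The non-members PtStettler14.13G140600 and PtStettler14.13G142400 likewise lie wholly inside a longer gene on the same strand, and averaged 0.227 and 0.209 TPM. Levels of these overlapping genes are therefore uncertain, and the counting of overlapping reads was not tested.

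The members together held a share of TPM that differed widely between libraries. TPM is per length, so a short gene weighs more in this share than in a share of fragments. Over 45 libraries the share ran from 0.682% in 13.3 r1, the first library of branch 13.3, to 32.0% in 14.1 r3, with a median of 3.61%. Tree 4 ran from 1.33% to 23.7% (median 3.61%), tree 14 from 1.73% to 32.0% (median 4.08%) and tree 13 from 0.682% to 12.4% (median 2.58%). The share was over 10% in 7 libraries and under 2% in 8. Branch means averaged 6.26% ± 2.91 in tree 4, 7.44% ± 3.08 in tree 14 and 4.04% ± 1.75 in tree 13 (SD, n = 5 branches each).

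The share also differed widely between libraries of 1 branch, a spread that the rule itself selected for. The highest share of a branch was 18.5 times its lowest in 14.1, 18.2 times in 13.3 and 17.8 times in 4.3, and it was 1.66 times in 14.5, the most even branch, with a median of 3.20 times. Branch means ran from 1.80% in 13.4 to 12.0% in 14.1, a ratio of 6.66, and 5 of 15 branches had a wider ratio than this among their own libraries. It was over 2 times in 13 of 15 branches and over 5 times in 6. The highest share fell in replicate 1 in 4 branches, in replicate 2 in 5 and in replicate 3 in 6. It fell in the library of lowest depth of its branch in 9 of 15 branches, and 14.1 r3 had the lowest depth of all, 11900000 fragments. The part of depth in the share was not tested. In bulk leaf RNA, fewer cells or organelles and less RNA in each cannot be told apart.

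**Figure D3:**
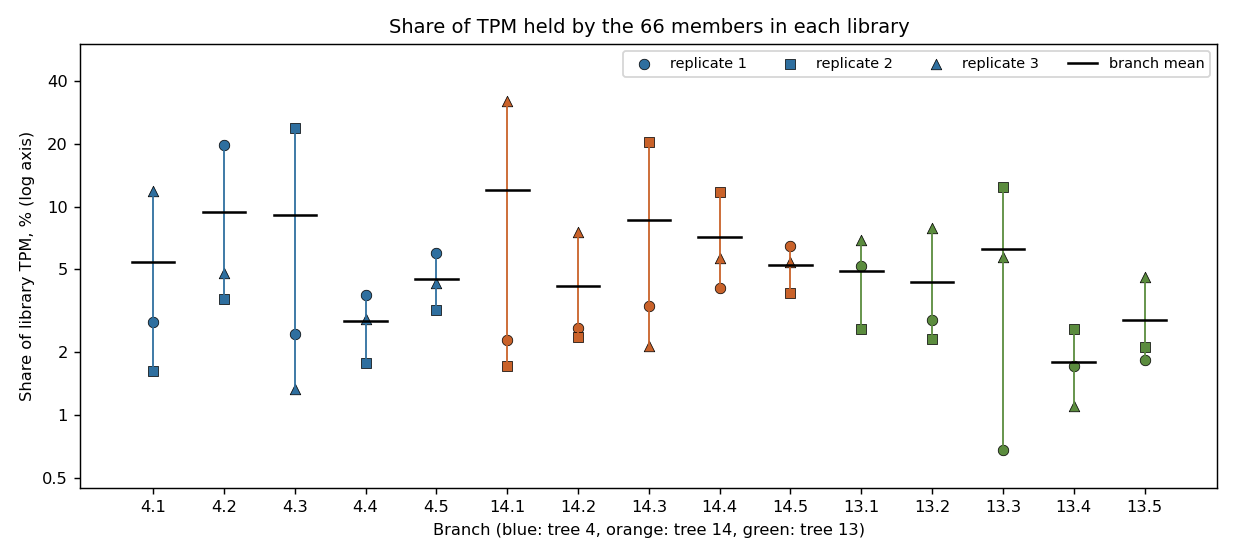
Share of each library's TPM held by the 66 members, in percent on a log axis, by branch of tree 4 (blue), tree 14 (orange) and tree 13 (green). Symbols are the 3 libraries of a branch, vertical lines their range and black bars the branch mean. The share runs from 0.682% in 13.3 r1 to 32.0% in 14.1 r3, and branches differ in how far their 3 libraries lie apart.

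A few genes carried the share. The 4 members of highest mean, PtStettler14.13G139500, PtStettler14.13G140000, PtStettler14.13G139600 and PtStettler14.13G060000, held 74.9% to 92.7% of the members' TPM in a library. The other 62 members held 0.0787% to 2.61% of all TPM, with a median of 0.482%. The second run held 0.616% to 28.2% and the first run 0.0664% to 3.85%. TPM has a fixed sum in each library. Between the library of highest and that of lowest share of a branch, the median log2(TPM + 1) difference over members ran from 0.66 in 14.4 to 3.63 in 13.3. Over all genes it ran from -0.83 in 14.1 to 0.06 in 4.5, and it was above 0 in 3 of 15 branches. In 14.1 r3 the genes off chromosome 13 that met the rule held a further 18.4% of TPM.

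The members were chosen for moving together within branches, so the following counts only describe how evenly they did so. Between the library of highest and that of lowest share of a branch, 65 or 66 of 66 members were higher in every branch. In 63 of 66 members the lowest library of all was 13.3 r1. The highest was 14.1 r3 for 35 members, 4.4 r1 for 8, 14.4 r3 for 7, 14.3 r2 for 7 and 14.4 r2 for 6. A single pattern of deviations over libraries took up 88.8% of the members' summed squares, and the next 6.20%. Pairs of members had a median correlation of 0.871 within the first run (190 pairs), 0.933 within the second (1035 pairs) and 0.861 between the runs (920 pairs). All these correlations share the 45 libraries and their depth, and the rule itself sets them high.

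**Figure D4:**
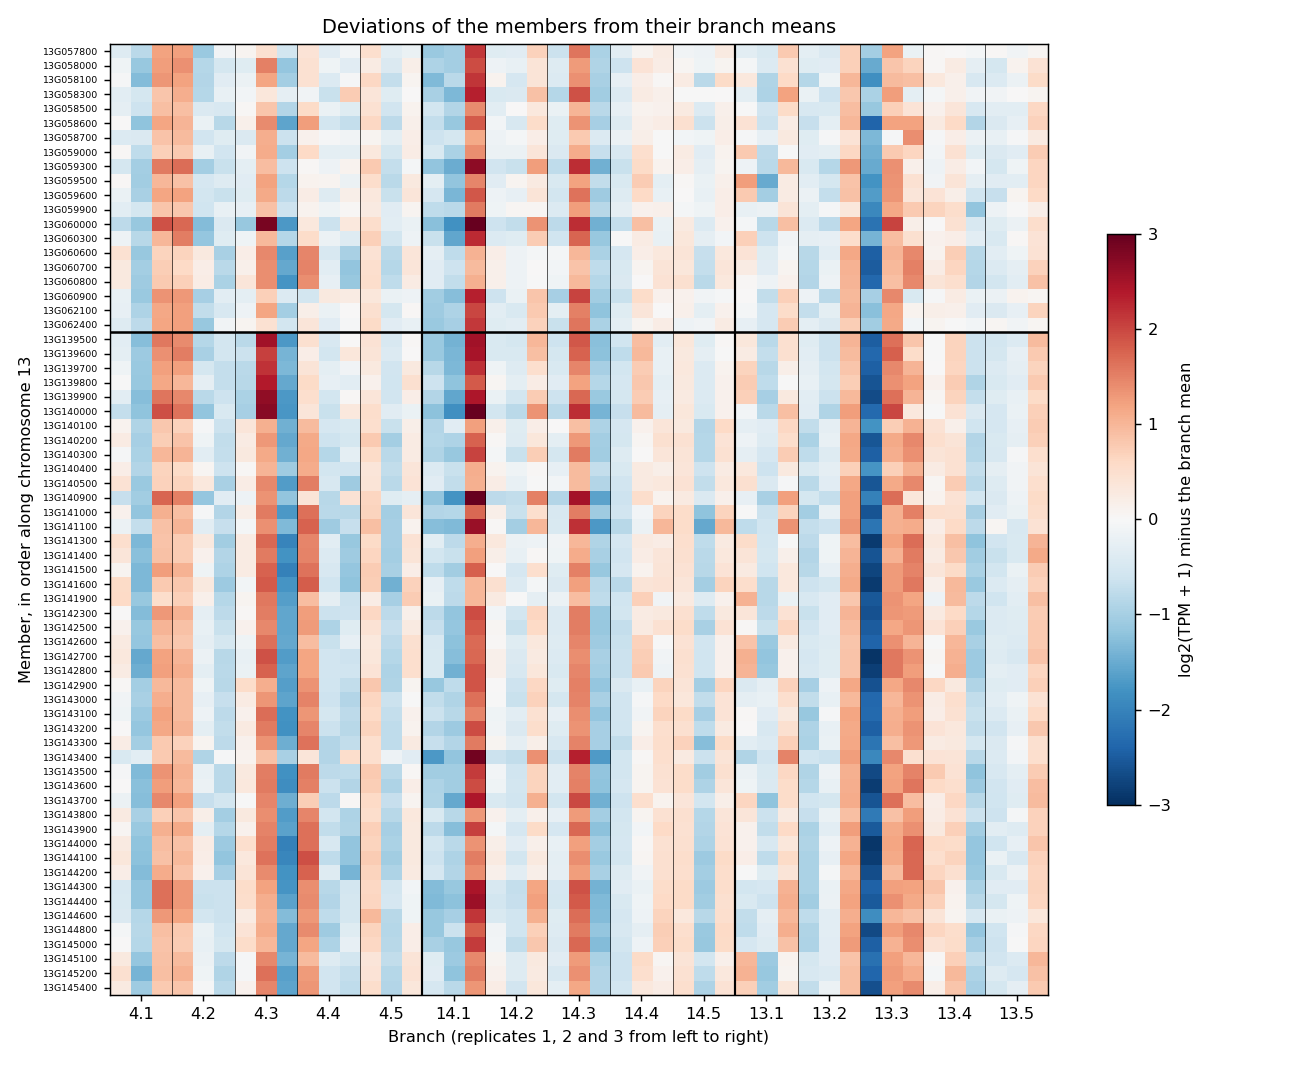
Deviation of log2(TPM + 1) from the branch mean for the 66 members, in order along chromosome 13 from top to bottom, in the 45 libraries, with thin lines between branches and thick lines between trees and between the 2 runs. Red is above and blue below the branch mean. Whole columns change colour together, with 14.1 r3 high and 13.3 r1 low in nearly every member, while in 4.4 r1 many genes of the second run are high and those of the ribosomal RNA places less so.

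Among the members the places differed in proportion. The ribosomal RNA places summed to 24.9 times the photosystem places in the median library, and this ratio ran from 11.3 in 4.4 r1 to 60.8 in 4.3 r2. Within a branch its highest value was 1.14 to 3.71 times its lowest. The deviations of PtStettler14.13G060000 had a correlation of 0.991 over 45 libraries with the mean deviations of the ribosomal RNA places. With those of the photosystem places it was 0.894. For the mean deviations of the other 19 members of the first run these correlations were 0.966 and 0.975. The ribosomal RNA places include PtStettler14.13G139500, by which the rule chose the members, so high values are built in and only described.

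The trees were then compared on branch means. The rule did not use these, but it did require a wide spread between the 3 libraries of a branch, which passes into the branch means. Few calls and overlapping branch means are therefore in part built into both tree comparisons, and nothing is read from those counts against the other genes. Values were scaled between libraries and tested with limma over all genes with Benjamini-Hochberg adjustment. Tree 14 was set against tree 13 on branches 14.2 to 14.5 and 13.1, 13.2, 13.3 and 13.5, the 8 that the study analysed, to ask whether the stems differ. At an adjusted p of at most 0.05, limma called 0 of 66 members, where 8.91% of 23383 tested genes were called (4.98% higher and 3.93% lower in tree 14). At an unadjusted p under 0.05 there were 6 members, against 29.4% of all tested genes. The branch means of the stems overlapped for each of the 66 members, whereas they did not overlap for 16.0% of all tested genes.

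PtStettler14.13G139500 had branch means of 13572, 37839, 25931 and 17675 scaled TPM in 14.2, 14.3, 14.4 and 14.5, against 13826, 13865, 21900 and 10612 scaled TPM in 13.1, 13.2, 13.3 and 13.5. The lowest branch of tree 14 thus lay below 3 of the 4 branches of tree 13. The log2 difference was 0.62 (SE 0.237, 95% interval 0.08 to 1.15, limma adjusted p = 0.124). It was 1.15 without the libraries of replicate 3, 0.40 without those of replicate 1 and 0.31 without those of replicate 2, so its size rested on which libraries entered. PtStettler14.13G143700 averaged 1099 ± 512 scaled TPM in tree 14 and 707 ± 220 in tree 13 (SD, n = 4 branches each), a difference of 0.62 (SE 0.278, limma adjusted p = 0.174). PtStettler14.13G060000 averaged 6678 ± 3666 in tree 14 and 4123 ± 1562 scaled TPM in tree 13, a difference of 0.58 (SE 0.223, limma adjusted p = 0.125). With 1 replicate number left out, the difference ran from 0.35 to 1.13 for PtStettler14.13G143700, and for PtStettler14.13G060000 it was 0.32 without replicate 2. In both genes it was highest without replicate 3.

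The direction was shared. The difference was above 0 in 65 of 66 members, against 49.2% of all tested genes, with a median of 0.49 against -0.00 over all tested genes. The median was 0.25 in the first run and 0.62 in the second. Since the members move together, 65 genes above 0 are not 65 separate measurements. The count of calls changed with 1 branch. Without 14.2 limma called 12 of 66 members, all higher in tree 14, where 15.9% of all tested genes were called. Among the 12 were PtStettler14.13G143700 (limma adjusted p = 0.0239) and PtStettler14.13G139500 (limma adjusted p = 0.0291). Since they move together, the 12 are not separate calls, and nothing is read from this count against the other genes.

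**Figure D5:**
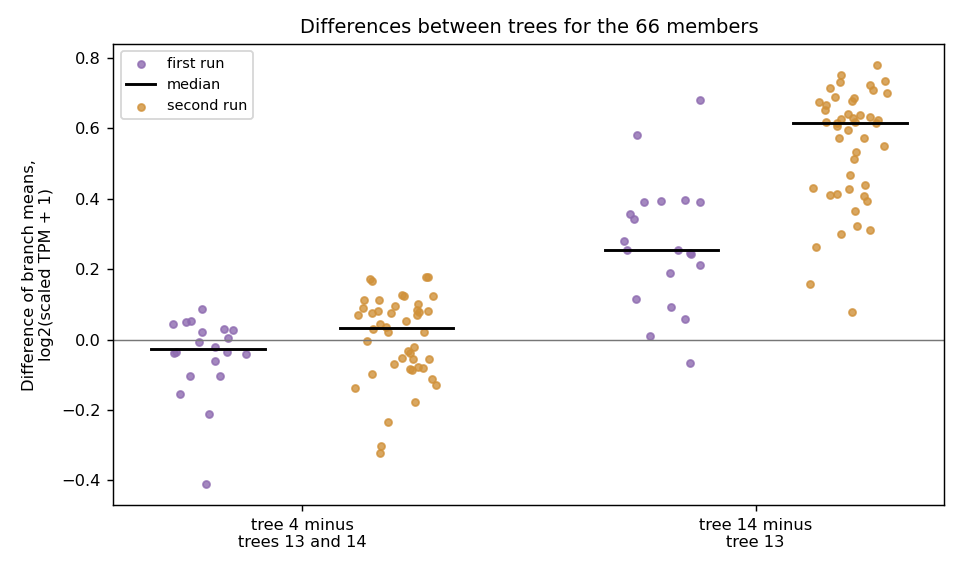
Difference of branch means on the log2(scaled TPM + 1) scale for each of the 66 members, for tree 4 minus trees 13 and 14 (left) and tree 14 minus tree 13 (right), by run, with black bars at the medians. The right-hand medians are 0.25 and 0.62 and the left-hand ones -0.03 and 0.03, and no single member passed the adjusted threshold in either comparison.

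Tree 4 was set against trees 14 and 13 on all 15 branches. limma called 0 of 66 members at an adjusted p of at most 0.05, where 36.5% of 23816 tested genes were called. At an unadjusted p under 0.05 there was 1 member, PtStettler14.13G058700, against 45.9% of all tested genes. It lies in the first run (4795318 to 4798199, plus strand) and averaged 5.53 ± 2.50 scaled TPM in tree 4, 8.49 ± 3.63 in tree 14 and 6.81 ± 4.33 in tree 13 (SD, n = 5 branches each), a log2 difference of -0.41 (SE 0.191, limma adjusted p = 0.106). For PtStettler14.13G139500 the difference was -0.14 (95% interval -0.70 to 0.42), and its sign turned without replicate 3 (0.23) and without branch 4.4 (0.07). The median over members was 0.01, and 34 of 66 were above 0, against 51.9% of all tested genes.

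In the 28 pairs of the 8 branches, fitted on libraries, limma called 0 of 66 members in any pair, where a call needed a log2 change of 1 or more in either direction and an adjusted p no higher than 0.01. Among all genes tested, 5.60% had such a call. The largest absolute change of a member over the pairs had a median of 1.95, against 0.37 over all tested genes, and it was at least 1 in 61 members, against 7.25% of all tested genes. At an unadjusted p under 0.05 in at least 1 pair there were 39 members, against 84.2% of all tested genes. The rule chose genes with a wide spread between libraries of a branch, so large changes and few calls among them are built into this comparison.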

How the data were processed

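Leaf mRNA was measured in 45 libraries. Per the labels and the methods, the authors made strand-specific libraries, trimmed paired 75-base reads with Trimmomatic 0.36, aligned them with HISAT2 2.1.0 and estimated expression on the Stettler annotation with StringTie 1.3.4d. The deposited tables give FPKM (fragments per kilobase relative to the library total) and TPM (the same rescaled by the authors to a fixed sum) for 34700 genes. StringTie ran with default settings, limited to the reference transcripts, and HISAT2 with default settings and output for transcript assemblers; how these defaults divided overlapping or multiply aligned reads was not examined. FPKM served only to recover depth.

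The 66 members, the lists, tests and most alternatives were chosen with earlier results of these data known. Named genes were PtStettler14.13G139500, the 6 members of highest mean TPM, the ends of the runs, the extremes of span and SD, and the 2 genes on either side of each threshold. Others, named by plastid place or for overlap, were chosen after their values were seen. Places came from the RefSeq table of assembly P.trichocarpa_v4.1, by span and spacing and not by strand, with 97 plastid coding genes among 143 plastid genes. That assembly differs from the Stettler genome, so none of its coordinates are printed.

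TPM was divided by median-of-ratios factors over 25014 genes above 0 in every library. A gene entered a fit when 3 or more of its libraries had 1 scaled TPM or more, and was tested as log2(scaled TPM + 1), which understates changes of low genes, with limma 3.58.1 in R 4.3.3 (trend, Benjamini-Hochberg). Branch means were used for trees, libraries for the 28 pairs. As in the study, the stem and pair comparisons did not use branches 14.1 and 13.4. Scripts ran in Python 3.11.15 with numpy 2.4.6 and pandas 2.3.3, and the fits were tested on simulated data. Alternatives covered the thresholds of the rule, the pseudocount, filter, scaling, trend, replicate block, and each branch, replicate number and the library 14.1 r3 left out. Precision is limited by 3 libraries per branch and by fragments: at 18.3 fragments per TPM and kb, low members rest on few.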

Additional observations from a re-analysis of the deposited data

How the results depend on the processing

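The number of members depended on the correlation threshold: 77 genes at 0.7 and 28 at 0.9. It was 61 to 72 when 1 replicate number was left out, and 61 to 78 with Spearman's rho, no minimum SD, a pseudocount of 0.1, scaled TPM or without 14.1 r3. The median share of TPM was 2.83% to 4.18% with 1 replicate number left out. Called members stayed at 0 in the stem comparison except without branch 14.2 (0 to 12 over the branches left out), and at 0 for tree 4 and for the pairs in each alternative run. Over these alternatives the stem difference of the 6 members of highest mean stayed above 0, from 0.17 to 1.15.

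The sign of the tree 4 differences was not stable. With TPM as deposited they were 0.07 for PtStettler14.13G139900 (0.0732) and PtStettler14.13G143700 (0.0727). Without 14.1 r3, an alternative chosen after seeing the data, they were 0.03 for PtStettler14.13G139500 (0.0257) and PtStettler14.13G139600 (0.0299), and 0.10 for PtStettler14.13G139900 (0.102) and PtStettler14.13G143700 (0.101). With 1 branch left out they ran from -0.34 to 0.07 for PtStettler14.13G139500, -0.37 to 0.02 for PtStettler14.13G139600, -0.24 to 0.08 for PtStettler14.13G139900, -0.27 to 0.08 for PtStettler14.13G143700, -0.12 to 0.37 for PtStettler14.13G140000 and -0.14 to 0.33 for PtStettler14.13G060000. With 1 replicate number left out they ran from -0.56 to 0.23, -0.55 to 0.17, -0.42 to 0.27, -0.58 to 0.31, -0.29 to 0.49 and -0.31 to 0.43 in the same order. The cause was not tested. The scaling alone moved a tree 4 difference by 0.13: 4194 of 8689 called genes were higher in tree 4 with scaling and 6170 of 7892 with TPM as deposited.

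With the replicate number as a block, 0 members were called in the 28 pairs. The numbers did not pair the libraries: deviations of same-numbered libraries had a median correlation of 0.03 (-0.37 to 0.49), against -0.01 for libraries of different number. Depth limits the first run most, since 15 of its 20 members averaged below 10 TPM.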
